A study of Mus musculus with 12 samples.

Results

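Regulatory T cells (Tregs) of perigonadal adipose tissue, the fat depot around the gonads, were set against Tregs of the spleen in mice whose Tregs were labelled as lacking T-bet. The comparison was chosen by the sample titles and holds 6 of the 12 arrays of the series, 3 of fat and 3 of spleen. Both groups came from chow-fed C57BL/6 mice that carried a floxed Tbx21, the gene for T-bet, together with Foxp3-YFP-Cre, a recombinase made where Foxp3 is active. They are called knockout fat and knockout spleen here. The other 6 arrays, from mice with Foxp3-YFP-Cre and no floxed Tbx21, are 3 of control fat and 3 of control spleen, so the Cre is shared by all 4 groups. The labels give neither age nor sex, nor the number of animals behind an array, nor how the cells were sorted.

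Tregs are CD4 T cells that restrain immune responses and depend on the transcription factor Foxp3. Those of visceral fat in mice are known for a programme of their own, built on the nuclear receptor PPAR-gamma, the type 2 regulator Gata3 and the alarmin IL-33, with uptake of fatty acids and secretion of interleukin-10. T-bet directs type 1 T cell programmes and, in Tregs, is known to promote the chemokine receptor Cxcr3. Spleen Tregs include resting cells that recirculate through lymphoid organs, a state tied to Lef1, Ccr7 and Bcl2.

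Messenger RNA was measured on Illumina bead arrays, and levels are log2 intensities after background correction and quantile normalization. A difference is the log2 level in knockout fat minus that in knockout spleen, so that a value of 1 stands for a fold of 2, and a gene was called at a limma adjusted p below 0.05. Of 8019 genes tested, 658 were called (8.21%), 377 higher in knockout fat (4.7%) and 281 lower (3.5%). The counts of each gene list below are to be read beside these shares. The median difference over all genes was -0.14. All 658 called genes differed in the same direction in each of the 3 pairs of arrays that share a replicate number, and in all of them the 3 fat arrays lay clear of the 3 spleen arrays, a separation that 27.8% of all genes showed. Arrays of knockout fat correlated with each other at 0.805 to 0.831, those of knockout spleen at 0.871 to 0.903, and arrays of different tissue at 0.693 to 0.782. Between 27.0 and 34.8% of probes were detected on these 6 arrays. The array names carry 1 number for each replicate number, read here as the slide, and 1 letter for each group; the labels do not say what the letter is, and if it is a place, place and group cannot be told apart. As the labels do not say whether replicates are separate animals, the p-values reflect only the scatter among arrays, possibly a technical one.

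**Figure D1:**
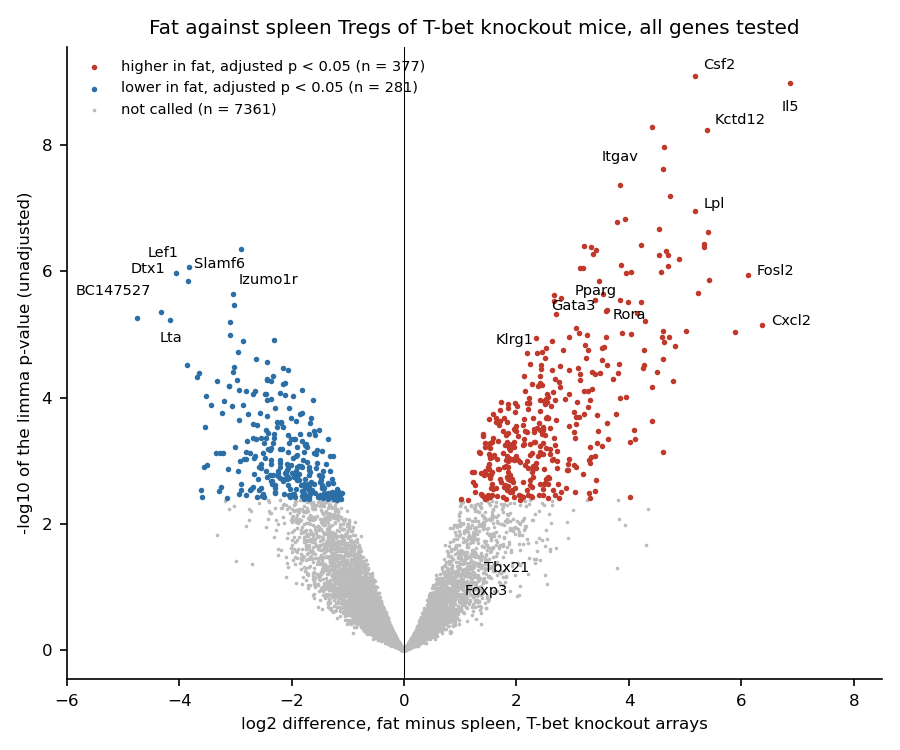
Each point is 1 of 8019 genes, with the log2 difference, knockout fat minus knockout spleen, on the x axis and the -log10 of the unadjusted limma p-value on the y axis. Red points are the 377 genes higher in knockout fat, blue points the 281 lower, and grey points were not called; Il5 and Csf2 stand at the upper right, Lef1 and Dtx1 at the upper left, and Tbx21 and Foxp3 lie among the grey points.

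The single probe for Tbx21 read 6.59, 7.54 and 4.93 in knockout fat, against 4.68, 5.72 and 4.71 in knockout spleen. It was detected on 2 fat arrays and 1 spleen array, and its level overlapped between tissues, with a log2 difference of 1.32 (SE 0.67, adjusted p = 0.277). In the mice without the floxed allele it read 5.48, 7.24 and 5.16 in control fat, against 4.54, 4.87 and 5.18 in control spleen. Whether this probe lies inside the deleted stretch is not known here, so it does not check the genotype labels. Cxcr3, a chemokine receptor gene that T-bet is known to promote, read 4.47, 6.46 and 5.32 in knockout fat, against 4.50, 7.23 and 4.94 in knockout spleen. It was detected on 3 of these 6 arrays, with a difference of -0.14 (SE 0.80, adjusted p = 0.943), a value whose sign turned without knockout fat array 1 (0.34) or knockout spleen array 2 (0.70). In the controls Cxcr3 was detected on all 6 arrays, at 7.39, 6.32 and 7.85 in control fat, against 7.22, 5.48 and 7.66 in control spleen. Knockout and control levels within a tissue were not tested here.

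Foxp3, which defines Tregs, was detected on all 6 arrays by its brightest probe, at 8.68, 9.07 and 9.20 in knockout fat, against 8.90, 6.37 and 8.75 in knockout spleen. The groups overlapped, with a log2 difference of 0.98 (SE 0.67, adjusted p = 0.436). Its other probes gave -1.87 and 0.44, and the mean of its probes gave -0.15, so the array set no direction for Foxp3. Of 18 measured genes of the core Treg list, 5 rose and 3 fell, with a median of 0.54. Socs2, a feedback inhibitor of cytokine signalling, rose by 2.39 (SE 0.40, adjusted p = 0.00377), and Swap70, a guanine exchange factor, rose by 2.02 (SE 0.42, adjusted p = 0.0118). Izumo1r, the folate receptor 4 of Tregs, fell: it read 5.57, 5.16 and 5.49 in knockout fat, against 8.93, 7.76 and 8.64 in knockout spleen. Izumo1r gave a difference of -3.03 (SE 0.36, adjusted p = 0.000449). Gpr83, a Treg receptor, also fell, with a log2 difference of -2.39 (SE 0.53, adjusted p = 0.0161). The Gpr83 call was lost under the removal of single arrays: Gpr83 without knockout fat array 2 or 3 or knockout spleen array 1 or 3 (adjusted p 0.0535 to 0.0711). Ctla4, the inhibitory receptor, read 11.28, 11.38 and 11.22 in knockout fat, against 9.48, 9.34 and 10.63 in knockout spleen and did not pass, with a difference of 1.48 (SE 0.42, adjusted p = 0.0514).

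Markers of other cells were present in these samples and moved with tissue. In such bulk samples, fewer cells of a type and less RNA per cell cannot be told apart. Of 13 measured macrophage and monocyte markers 8 rose in knockout fat and none fell, with a median of 2.69. Their summed level was 12.6 to 13.5 in knockout fat, against 9.36 to 10.03 in knockout spleen, with no overlap. For 2 of these 13 markers no probe was detected in knockout spleen. Lyz2, a macrophage lysozyme, read 10.79, 11.30 and 11.15 in knockout fat, against 6.65, 7.45 and 7.87 in knockout spleen, and Lyz1, a near-identical copy whose signal may be shared, rose by 3.62. Cd163, the haemoglobin scavenger receptor of macrophages, read 8.02, 10.69 and 9.82 in knockout fat, against 4.36, 6.05 and 4.89 in knockout spleen. C1qb, a complement subunit made by macrophages, read 7.49, 9.69 and 8.44 in knockout fat, against 4.67, 5.13 and 5.25 in knockout spleen. Of 10 measured MHC class II genes 4 rose and none was called lower, with a median of 2.45 and a summed level of 12.3 to 13.8 in knockout fat, against 10.7 to 11.6 in knockout spleen. Their differences reached down to -2.16. All fat arrays lay above all spleen arrays for 6 of the 10, against 12.1% of all genes, and below them for 2, against 15.7%. H2-Eb1 rose by 3.82 (SE 0.59, adjusted p = 0.00239) and H2-Aa by 3.33 (SE 0.76, adjusted p = 0.0189). H2-Ab1 rose by 3.17 (SE 0.78, adjusted p = 0.0277) and H2-DMb1, a chain of the peptide loading factor, by 2.56 (SE 0.64, adjusted p = 0.0295). The calls of Lyz1, C1qb and 3 class II genes rested on single arrays: Lyz1 without knockout spleen array 1 (adjusted p = 0.0651), C1qb without knockout fat array 2 or knockout spleen array 1 (adjusted p 0.0531 to 0.0656), H2-Aa without knockout fat array 3 or knockout spleen array 1 or 2 (adjusted p 0.0623 to 0.083), H2-Ab1 without knockout fat array 2 or 3 or knockout spleen array 1 or 2 (adjusted p 0.0573 to 0.113), and H2-DMb1 without knockout fat array 1 or 2 or 3 or knockout spleen array 1 or 2 or 3 (adjusted p 0.0524 to 0.101).

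Markers of further lineages were present, some on all fat arrays and some on single ones. Of 3 measured dendritic cell markers 1 rose, Clec10a, a lectin also made by macrophages, with 10.96, 11.85 and 11.76 in knockout fat, against 7.06, 4.52 and 5.34 in knockout spleen. The other 2 were not called, the median of the 3 was -0.04 and the lowest difference -0.84. For 1 of the 3 all fat arrays lay below all spleen arrays. Of 7 further dendritic cell markers below the filter, 3, 2 and 5 were detected on knockout fat arrays 1, 2 and 3. On knockout spleen arrays 1, 2 and 3 the counts were 0, 1 and 0. Of 17 mast cell and granulocyte genes on the array 2 were measured and neither passed. The neutrophil gene S100a9 read 9.07, 10.70 and 7.20 in knockout fat, against 4.89, 4.55 and 6.06 in knockout spleen, with a difference of 3.82 (SE 1.21, adjusted p = 0.0763). Fcer1a, the other measured gene, gave -0.30 (SE 0.39, adjusted p = 0.715). Of the other 15, 8 were undetected on all 6 arrays (Cpa3, Ms4a2, Cma1, Tpsb2, Mcpt8, Prss34, Mpo and Elane) and 7 were detected on 1 or more. Among these S100a8, the partner of S100a9, read 4.97, 9.50 and 6.74 in knockout fat, against 5.01, 4.35 and 4.48 in knockout spleen. Kit, a receptor of mast cells, was detected on knockout fat array 1 (6.15) and Siglecf, an eosinophil lectin, on knockout fat array 3 (6.41). Mcpt4 was detected on knockout fat array 1, Csf3r and Prg2 on knockout fat array 2, and Epx on knockout spleen array 3 alone (5.30).

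Knockout fat array 2 stood apart in markers of adipose tissue. Fabp4, a fatty acid carrier of adipocytes and macrophages, was the 1 adipocyte marker measured, and it read 9.64, 10.94 and 6.98 in knockout fat, against 4.73, 4.48 and 4.55 in knockout spleen. Of 7 adipocyte markers below the filter, Adipoq, the adiponectin gene, read 5.85 and Cidec, a lipid droplet gene, 5.81 on knockout fat array 2, and both were undetected on the other 5 arrays. Plin1, Plin4, Lep and Car3 were undetected on all 6, and Retn was detected on knockout spleen array 1 alone (5.57). The 1 measured stromal gene, Sparc, read 6.95, 9.44 and 6.02 in knockout fat, against 4.49, 4.66 and 4.55 in knockout spleen, with a difference of 2.91 (SE 0.94, adjusted p = 0.0811). Of 10 stromal and mesothelial markers below the filter 5 were detected, on knockout fat array 2 alone, where the collagen gene Col3a1 read 7.89 and the proteoglycan gene Dcn 7.50, while Col1a1, Lum, Msln, Pdgfrb and Upk3b were undetected. The endothelial genes Esam (7.91) and Ptprb (6.24) were also detected on that array alone, and neither of the 2 endothelial markers that were measured passed. Of 8 endothelial markers below the filter 5 were undetected on all 6 arrays, and Cdh5 was detected on knockout spleen array 2 alone. Without knockout fat array 2, 515 genes were called, 294 higher and 221 lower.

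Of 5 measured CD8 and NK markers 1 rose, Eomes. Of 4 below the filter, 3 were detected on knockout fat array 3, where the NK receptor genes Ncr1, Klrd1 and Klrk1 read 8.53, 7.04 and 5.87. On the other fat arrays Ncr1 read 4.61 and 4.58, and on the spleen arrays 4.35, 4.49 and 4.36. Without knockout fat array 3, 559 genes were called, 330 higher and 229 lower. Of 3 measured genes of type 2 innate lymphoid cells, which share many genes with fat Tregs, 2 rose, Hlf by 2.28 (SE 0.51, adjusted p = 0.017) and Il7r by 1.52 (SE 0.35, adjusted p = 0.0193), and the summed level was 10.87 to 10.95 in knockout fat, against 8.78 to 9.58 in knockout spleen. For 2 of the 3 no probe was detected in knockout spleen. The Hlf call was lost without knockout fat array 3 or knockout spleen array 1 or 2 (adjusted p 0.0529 to 0.0663). None of the 3 B cell markers passed, and of 3 markers of erythroid cells and platelets 1 rose, Pf4. Among 9 T cell markers none passed and the median was -0.72, with a summed level of 13.2 to 13.3 in knockout fat, against 13.8 in each array of knockout spleen. Cd4 read 8.56, 7.60 and 8.18 in knockout fat, against 9.66, 8.83 and 9.02 in knockout spleen, a log2 difference of -1.06 (SE 0.40, adjusted p = 0.132), and Cd3g read 10.18, 10.24 and 9.64 in knockout fat, against 10.68, 11.11 and 10.76 in knockout spleen. Cd3g gave a difference of -0.83 (SE 0.31, adjusted p = 0.125). What part these cells had in the differences below was not tested.

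**Figure D2:**
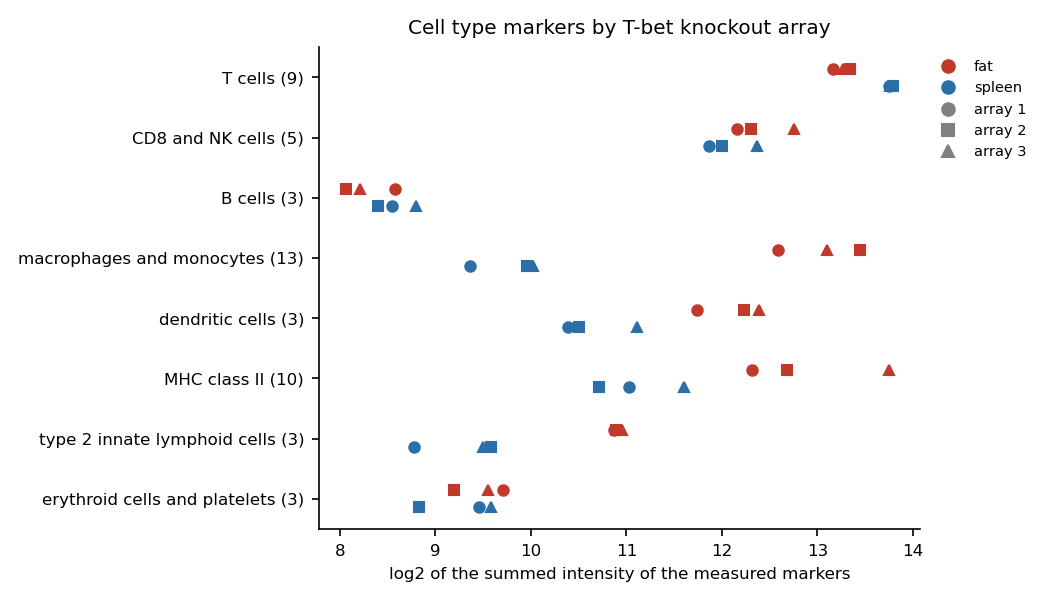
Each row is a list of cell type markers with the number of measured genes in brackets, and the x axis gives the log2 of their summed intensity on each array, red for knockout fat and blue for knockout spleen, with a symbol per replicate number. Macrophage and MHC class II markers lie higher in all 3 fat arrays than in all 3 spleen arrays, and T cell markers lie lower.

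Genes known from adipose Tregs rose together. Of 24 measured members of the adipose Treg list 18 rose and none fell, with a median of 3.44, against -0.14 over all genes and 4.7% of all genes higher in fat. For 8 of the 24 no probe was detected in knockout spleen, so that these could hardly have differed the other way. The list is known from earlier work on such cells and was used with results of these data known, so its direction is a description.

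Type 2 cytokine genes included Il5, which had the largest rise of all genes. Il5, the growth factor of eosinophils, read 12.11, 12.05 and 10.96 in knockout fat, against 5.04, 4.95 and 4.56 in knockout spleen. It was bright on every fat array and undetected on every spleen array, at least 91-fold higher in knockout fat (measured means 11.71 ± 0.65 in knockout fat and 4.85 ± 0.26 in knockout spleen, SD, n = 3 each, adjusted p = 4.12e-06). Csf2, which encodes the growth factor GM-CSF, read 9.73, 9.49 and 9.85 in knockout fat, against 4.48, 4.50 and 4.55 in knockout spleen, at least 22.5-fold higher (adjusted p = 4.12e-06). Il13, a cytokine that acts on macrophages and epithelium, read 8.71, 8.05 and 8.40 in knockout fat, against 4.83, 5.24 and 5.09 in knockout spleen. Il13 gave a difference of 3.33 (SE 0.34, adjusted p = 0.00018). Il4, their neighbour on chromosome 11, read 5.32, 4.71 and 5.43 in knockout fat, against 5.06, 5.23 and 5.34 in knockout spleen and gave a difference of -0.06 (SE 0.84, adjusted p = 0.979). The sizes depend on the background correction. Without it the log2 differences were 4.94 for Il5, 3.19 for Csf2, 2.19 for Pparg, 3.22 for Lpl and 2.76 for Cd36, and all 5 stayed called. Of 12 genes in the RefSeq order between Il4 and Il3, 9 were measured, and the 3 that rose were Il13, Il5 and Csf2. Hdc, which makes histamine, read 11.01, 11.90 and 10.16 in knockout fat, against 7.07, 5.36 and 5.98 in knockout spleen. Hdc gave a difference of 4.88 (SE 0.52, adjusted p = 0.000202). The type 2 list had 12 measured members, of which 7 rose, with no falls and a median of 2.81. For 2 of the 12 no probe was detected in knockout spleen.

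The promoter windows of the 3 cytokine genes that rose within this region are shown because they move together, from 250 bases before to 50 bases after the RefSeq start on GRCm38.p6, each on its gene's strand. Il5 lies at chr11:53720544-53720843, plus strand, Il13 at chr11:53634653-53634952, minus strand and Csf2 at chr11:54249850-54250149, minus strand. Capitals mark matches to the motif of the Gata3 family on either strand, which is GATAA with an A or a T before it, or else the letters GATAG with the same before them.
Il5: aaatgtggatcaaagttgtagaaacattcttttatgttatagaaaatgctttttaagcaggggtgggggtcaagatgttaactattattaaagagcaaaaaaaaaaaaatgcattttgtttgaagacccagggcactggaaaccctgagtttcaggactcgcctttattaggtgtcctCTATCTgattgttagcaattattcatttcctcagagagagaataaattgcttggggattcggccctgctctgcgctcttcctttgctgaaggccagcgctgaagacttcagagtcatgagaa
Il13: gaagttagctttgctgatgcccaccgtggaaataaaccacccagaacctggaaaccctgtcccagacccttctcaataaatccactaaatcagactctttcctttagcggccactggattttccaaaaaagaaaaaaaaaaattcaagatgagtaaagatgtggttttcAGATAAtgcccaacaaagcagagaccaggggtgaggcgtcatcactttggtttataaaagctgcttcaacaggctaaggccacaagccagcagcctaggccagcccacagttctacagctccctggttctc
Csf2: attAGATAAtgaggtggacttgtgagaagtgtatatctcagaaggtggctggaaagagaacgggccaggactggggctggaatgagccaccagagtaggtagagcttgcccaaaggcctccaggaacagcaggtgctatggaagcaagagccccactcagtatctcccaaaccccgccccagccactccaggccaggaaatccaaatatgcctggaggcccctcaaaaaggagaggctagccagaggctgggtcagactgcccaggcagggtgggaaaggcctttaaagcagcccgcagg
Each window held 1 such match, as did at least 1 in 29.76% of 32851 RefSeq promoter windows of this length. None held the AP-1 motif on either strand, spelled TGACTCA or, with the middle base changed, spelled TGAGTCA, which 5.2% of all windows hold. A match is a description of the letters only.

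**Figure D3:**
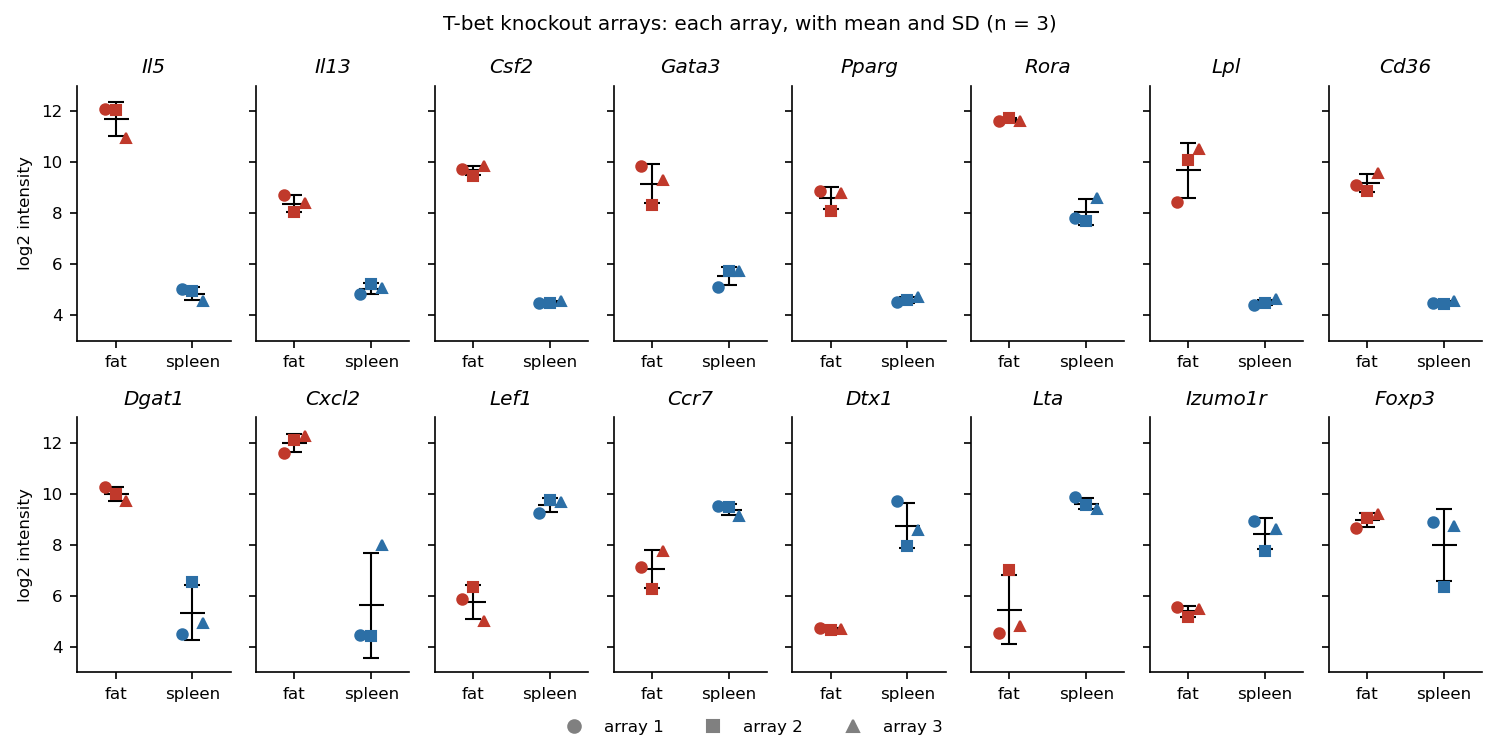
Each panel is 1 gene, with the log2 intensity of each T-bet knockout array as a symbol (circle, square and triangle for replicate numbers 1, 2 and 3) and the mean with SD as bars, fat in red on the left and spleen in blue on the right. Il5, Csf2, Lpl and Cd36 lie near background in spleen and above 8 in fat, Lef1, Dtx1 and Izumo1r lie lower in fat, and Foxp3 overlaps.

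The transcription factors of the programme rose with the cytokines. Pparg, the PPAR-gamma gene, read 8.89, 8.09 and 8.80 in knockout fat, against 4.51, 4.59 and 4.72 in knockout spleen, undetected on all spleen arrays and at least 10.5-fold higher in knockout fat (adjusted p = 0.000507), and its other probe gave 3.40. Gata3 read 9.85, 8.33 and 9.29 in knockout fat, against 5.12, 5.76 and 5.76 in knockout spleen, a log2 difference of 3.61 (SE 0.46, adjusted p = 0.000648), with all fat arrays above all spleen arrays. Rora, a nuclear receptor of type 2 lymphocytes, was well detected in both tissues, at 11.61, 11.74 and 11.62 in knockout fat, against 7.83, 7.72 and 8.62 in knockout spleen. Rora gave a difference of 3.60 (SE 0.46, adjusted p = 0.000673). Zeb2, a transcriptional repressor made in effector lymphocytes, rose by 3.26 (SE 0.45, adjusted p = 0.00121), and Id2, which antagonizes E proteins, rose by 3.14 (SE 0.51, adjusted p = 0.00329). Prdm1, which encodes Blimp-1, rose by 2.59 (SE 0.57, adjusted p = 0.0156), and Irf4, needed for effector Tregs, rose by 1.59 (SE 0.30, adjusted p = 0.00718). In the list of effector Treg transcription factors 7 of 16 rose and none fell (median 1.56), and among nuclear receptors 4 of 11 rose and none fell (median 1.87), with Nr4a3, an early gene of antigen receptor signalling, at 2.87 (SE 0.51, adjusted p = 0.00504) and its relative Nr4a2 at 2.80 (SE 0.76, adjusted p = 0.0423). Prdm1 and Nr4a2 lost their calls with single arrays left out: Prdm1 without knockout fat array 1 or knockout spleen array 1 (adjusted p 0.0569 to 0.0747), and Nr4a2 without knockout fat array 2 or 3 or knockout spleen array 1 or 2 or control fat array 1 (adjusted p 0.0538 to 0.158). Among 10 genes of the IL-33 and IL-1 receptor family none was called and the median was 0.34; Irak3, an inhibitory kinase of the pathway, read 6.60, 7.0 and 7.07 in knockout fat, against 5.19, 5.31 and 5.16 in knockout spleen, with a difference of 1.67 (SE 0.52, adjusted p = 0.071), and Il1rap, the shared accessory chain, gave 0.84 (SE 0.52, adjusted p = 0.378). Il1rl1, the IL-33 receptor gene, was not analysed here.

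Genes of lipid uptake and storage were among those that rose, and no gene of fatty acid oxidation was called. Lpl, the lipase that frees fatty acids from lipoproteins, read 8.45, 10.09 and 10.52 in knockout fat, against 4.41, 4.50 and 4.63 in knockout spleen, at least 22.5-fold higher in knockout fat (adjusted p = 9.73e-05). Cd36, a fatty acid transporter, read 9.11, 8.88 and 9.57 in knockout fat, against 4.48, 4.44 and 4.58 in knockout spleen, at least 15.9-fold higher (adjusted p = 0.000184). Both were undetected on all spleen arrays. Dgat1, which catalyses the last step of triglyceride synthesis, read 10.26, 9.99 and 9.73 in knockout fat, against 4.50, 6.56 and 4.96 in knockout spleen, a log2 difference of 4.65 (SE 0.48, adjusted p = 0.00018), and Dgat2, which does the same, rose by 3.21 (SE 0.32, adjusted p = 0.00018). The lipid droplet genes Hilpda and Plin2 rose by 3.80 (SE 0.35, adjusted p = 0.000121) and 3.49 (SE 0.56, adjusted p = 0.00281). Fabp4 rose by at least 15.8-fold (adjusted p = 0.0167), a call lost with single arrays left out: Fabp4 without knockout fat array 1 or 2 or knockout spleen array 1 or 2 (adjusted p 0.0556 to 0.0583). In all 8 of 18 members rose and none fell, with a median of 1.27. For 5 of the 18 no probe was detected in knockout spleen, so that these could hardly have differed the other way. Of 28 genes of the list on the array, 10 had no probe that passed the filter. Lpl, Cd36 and Plin2 are also made by macrophages and adipocytes, whose markers are given above.

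Of 16 genes of fatty acid oxidation none was called, with a median of -0.22. Cpt2, an enzyme of mitochondrial fatty acid import, read 4.39, 4.85 and 6.60 in knockout fat, against 7.35, 6.68 and 6.60 in knockout spleen, with a difference of -1.60 (SE 0.76, adjusted p = 0.244), and Acaa2, a thiolase of the last step, read 5.92, 6.56 and 5.78 in knockout fat, against 8.38, 7.21 and 7.16 in knockout spleen, with a difference of -1.49 (SE 0.44, adjusted p = 0.0562). Of 14 sterol and fatty acid synthesis genes 1 rose, Idi1, an isomerase of the sterol route, by 1.23 (SE 0.32, adjusted p = 0.0336) (median 0.14). Its call also rested on single arrays: Idi1 without knockout fat array 1 or 2 or 3 or knockout spleen array 1 or 3 or control spleen array 1 (adjusted p 0.052 to 0.128). No glycolysis gene of 14 was called (median 0.35); Hif1a, the hypoxia factor, gave 1.73 (SE 0.50, adjusted p = 0.0553) and the kinase gene Pdk1 -0.71 (SE 0.31, adjusted p = 0.202). Of 24 genes of oxidative phosphorylation 1 fell, Sdha, a subunit of complex II, with 5.74, 6.0 and 7.28 in knockout fat, against 7.83, 8.38 and 8.23 in knockout spleen and a log2 difference of -1.81 (SE 0.50, adjusted p = 0.0464), and the median was -0.32. The call was lost for Sdha without knockout fat array 1 or 2 or knockout spleen array 1 or 2 or 3 or control fat array 1 or 2 or control spleen array 1 (adjusted p 0.0514 to 0.145). Of the 68 genes of these 4 lists 2 were called (2.94%), against 8.21% of all genes.

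Genes for secreted chemokines rose, many of them neighbours in the genome. Of 17 measured ligands 10 rose and none fell, with a median of 2.58, and for 10 of the 17 no probe was detected in knockout spleen. Cxcl2, a neutrophil attractant, read 11.61, 12.12 and 12.26 in knockout fat, against 4.45, 4.41 and 8.02 in knockout spleen. Cxcl2 gave a difference of 6.37 (SE 0.85, adjusted p = 0.000957). Knockout spleen array 3 was high for Cxcl2 while the other knockout spleen arrays were near background. Control spleen was uneven in the same way, at 4.68, 4.62 and 6.49. Cxcl1, of the same family, read 8.84, 10.92 and 10.65 in knockout fat, against 4.47, 4.80 and 4.85 in knockout spleen, at least 30.6-fold higher (adjusted p = 0.000298). Cxcl3 read 9.52, 8.38 and 9.82 in knockout fat, against 4.65, 4.42 and 4.55 in knockout spleen, at least 16.5-fold higher (adjusted p = 0.000237). Of 7 genes in their region of chromosome 5, 4 were measured and all 4 rose, the fourth being Pf4, platelet factor 4, at least 8.11-fold higher (adjusted p = 0.00501). The CC chemokine gene Ccl7, which encodes a monocyte attractant, read 7.97, 10.17 and 10.14 in knockout fat, against 4.37, 4.46 and 4.42 in knockout spleen, at least 18.7-fold higher (adjusted p = 0.00114). Its neighbours Ccl2 and Ccl1 on chromosome 11 rose by 3.03 (SE 0.72, adjusted p = 0.0227) and 1.70 (SE 0.33, adjusted p = 0.00826). In another CC region of that chromosome Ccl9 rose by 4.59 (SE 0.64, adjusted p = 0.00123) and Ccl6 by 1.49 (SE 0.41, adjusted p = 0.0457). Single arrays decided 2 of these: Ccl2 without knockout fat array 1 or 3 or knockout spleen array 1 or 2 or 3 (adjusted p 0.0549 to 0.0743), and Ccl6 without knockout fat array 1 or 2 or 3 or knockout spleen array 1 or 2 or 3 or control fat array 3 or control spleen array 1 or 2 or 3 (adjusted p 0.0507 to 0.129). These chemokines are also products of macrophages, whose summed markers were 12.6 to 13.5 in knockout fat, against 9.36 to 10.03 in knockout spleen, and their part was not tested.

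The windows of the 3 CXC genes are shown because they share a run of letters, again on GRCm38.p6 from 250 bases before to 50 after the start. Cxcl1 lies at chr5:90890995-90891294, plus strand, Cxcl2 at chr5:90903649-90903948, plus strand and Cxcl3 at chr5:90785851-90786150, plus strand. Capitals mark GATA matches as above and matches to the NF-kappa-B motif, searched on both strands.
Cxcl1: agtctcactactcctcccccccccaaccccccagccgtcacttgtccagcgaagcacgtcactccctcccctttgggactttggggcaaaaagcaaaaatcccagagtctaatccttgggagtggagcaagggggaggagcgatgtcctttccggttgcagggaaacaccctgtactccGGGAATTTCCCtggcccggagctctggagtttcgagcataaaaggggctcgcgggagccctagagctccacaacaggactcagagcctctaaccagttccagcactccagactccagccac
Cxcl2: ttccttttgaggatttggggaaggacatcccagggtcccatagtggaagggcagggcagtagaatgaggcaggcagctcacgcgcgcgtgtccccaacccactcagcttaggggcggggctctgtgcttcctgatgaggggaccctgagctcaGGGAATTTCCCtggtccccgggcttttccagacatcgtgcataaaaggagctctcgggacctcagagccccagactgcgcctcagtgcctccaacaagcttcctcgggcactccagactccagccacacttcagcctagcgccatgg
Cxcl3: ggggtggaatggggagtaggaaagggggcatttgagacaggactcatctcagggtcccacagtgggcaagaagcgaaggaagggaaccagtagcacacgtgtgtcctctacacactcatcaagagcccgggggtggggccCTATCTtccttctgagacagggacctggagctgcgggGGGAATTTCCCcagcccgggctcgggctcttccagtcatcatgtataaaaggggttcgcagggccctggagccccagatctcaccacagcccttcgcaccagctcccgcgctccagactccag
All 3 windows held the run GGGAATTTCCC, which counts as 2 overlapping matches in each, 1 on each strand. At least 1 NF-kappa-B match stood in 4.51% of all 32851 windows. Cxcl3 held 1 GATA match and none of the 3 held the AP-1 motif.

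Among chemokine receptors 4 of 11 rose and 2 fell, with a median of 0.31, against 4.7% of all genes higher and 3.5% lower. Ccr8, a receptor of tissue Tregs, read 8.04, 7.71 and 9.0 in knockout fat, against 4.73, 4.77 and 5.64 in knockout spleen. Ccr8 gave a difference of 3.20 (SE 0.55, adjusted p = 0.00421). Cxcr6, another tissue receptor, read 10.97, 10.32 and 10.62 in knockout fat, against 6.31, 9.01 and 7.33 in knockout spleen. Cxcr6 gave a difference of 3.08 (SE 0.55, adjusted p = 0.00525). Ccr4, a skin and tissue homing receptor, rose by 2.42 (SE 0.63, adjusted p = 0.035) and Ccr2, the receptor of Ccl2 and Ccl7, by 2.20 (SE 0.59, adjusted p = 0.0404). Ccr7, which guides cells into lymph nodes, fell, with 7.15, 6.26 and 7.76 in knockout fat, against 9.53, 9.49 and 9.12 in knockout spleen and a log2 difference of -2.33 (SE 0.37, adjusted p = 0.003). Ccr6 read 4.72, 7.54 and 4.52 in knockout fat, against 9.07, 9.25 and 8.22 in knockout spleen, with knockout fat array 2 far above the other fat arrays, a log2 difference of -3.26 (SE 0.86, adjusted p = 0.038). Its other probe gave -0.50. Of these calls, those of Ccr4, Ccr2 and Ccr6 did not survive the loss of single arrays: Ccr4 without knockout fat array 1 or 2 or knockout spleen array 1 or 2 or 3 or control spleen array 1 (adjusted p 0.0501 to 0.119), Ccr2 without knockout fat array 1 or 3 or knockout spleen array 1 or 2 or 3 or control spleen array 1 or 2 or 3 (adjusted p 0.0541 to 0.119), and Ccr6 without knockout fat array 1 or 3 or knockout spleen array 1 or 2 or 3 or control fat array 1 or control spleen array 1 (adjusted p 0.0502 to 0.123). Of 14 integrins and selectin ligands 2 rose, with a median of 0.10, against 4.7% of all genes higher. Itgav, the integrin chain that takes part in freeing active TGF-beta, read 9.75, 9.70 and 10.17 in knockout fat, against 4.85, 5.50 and 5.44 in knockout spleen, a log2 difference of 4.61 (SE 0.36, adjusted p = 3.13e-05), and its other 4 probes gave 1.52 to 3.43.

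Suppressive molecules were mostly higher in knockout fat. Of 14 measured 8 rose and 1 fell, with a median of 1.82. Il10, the suppressive cytokine, read 10.81, 10.83 and 10.47 in knockout fat, against 5.91, 5.42 and 8.47 in knockout spleen, a log2 difference of 4.10 (SE 0.86, adjusted p = 0.0125), with knockout spleen array 3 above the other knockout spleen arrays. In control spleen Il10 read 4.54, 5.33 and 7.94, again highest on array 3. Lgals3, a galectin that macrophages also make, read 10.12, 10.72 and 10.06 in knockout fat, against 5.97, 4.52 and 6.30 in knockout spleen. Lgals3 gave a difference of 4.70 (SE 0.65, adjusted p = 0.00123). Furin, a protease that matures TGF-beta, read 11.81, 11.66 and 10.91 in knockout fat, against 8.0, 5.48 and 7.38 in knockout spleen. Furin gave a difference of 4.50 (SE 0.71, adjusted p = 0.00277). Fgl2, a secreted suppressor, was detected in both tissues, at 9.87, 10.13 and 9.94 in knockout fat, against 5.64, 6.93 and 5.80 in knockout spleen. Fgl2 gave a difference of 3.86 (SE 0.42, adjusted p = 0.000237). Gzmb, granzyme B, rose by 2.70 (SE 0.34, adjusted p = 0.000688). Nt5e, the CD73 ectoenzyme that makes adenosine, was the 1 that fell, by 1.64 on the log2 scale (adjusted p = 0.0409). The Il10 and Nt5e calls depended on single arrays: Il10 without knockout spleen array 1 or 2 (adjusted p 0.0588 to 0.0626), and Nt5e without knockout fat array 1 or 2 or 3 or knockout spleen array 1 or 2 or 3 or control spleen array 1 or 2 or 3 (adjusted p 0.0523 to 0.15).

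Of 17 checkpoint and activation receptors 4 rose and 2 fell, with a median of 1.11. Klrg1, an inhibitory receptor of differentiated lymphocytes, read 11.11, 11.54 and 11.04 in knockout fat, against 9.10, 8.64 and 8.35 in knockout spleen. Klrg1 gave a difference of 2.53 (SE 0.37, adjusted p = 0.00159). Cd44, a marker of antigen-experienced T cells, rose by 1.77 (SE 0.42, adjusted p = 0.0235), and Cd274, which encodes PD-L1, rose by 2.05 (SE 0.56, adjusted p = 0.0457). Cd200, a ligand that dampens myeloid cells, fell, with 7.57, 6.89 and 5.45 in knockout fat, against 9.88, 9.25 and 9.66 in knockout spleen and a log2 difference of -2.96 (SE 0.72, adjusted p = 0.0261), and Btla, an inhibitory receptor, gave -1.76 (SE 0.47, adjusted p = 0.0385). Within the TNF superfamily 4 of 17 rose and 1 fell, with a median of 0.71. Cd40lg, the helper ligand, rose by 2.06 (SE 0.48, adjusted p = 0.0211), Tnfsf14 by 1.96 (SE 0.54, adjusted p = 0.0468) and Tnfrsf9, the 4-1BB receptor, by 1.65 (SE 0.38, adjusted p = 0.0195). Among 16 gamma chain receptor and SOCS genes 4 rose and none fell, with a median of 0.80, Pim1, a survival kinase, by 2.23 (SE 0.50, adjusted p = 0.0179) and Il2ra, the interleukin-2 receptor alpha chain, by 1.68 (SE 0.41, adjusted p = 0.0245). The other Il2ra probe gave -0.62. Most of these calls were close to the threshold and were lost with single arrays left out: Cd44 without knockout fat array 1 or 3 or knockout spleen array 1 (adjusted p 0.0579 to 0.102), Cd274 without knockout fat array 1 or 2 or 3 or knockout spleen array 1 or 2 or control fat array 1 or control spleen array 1 or 2 (adjusted p 0.0528 to 0.17), Cd200 without knockout fat array 2 or 3 or knockout spleen array 1 or 2 or 3 (adjusted p 0.0531 to 0.0988), Btla without knockout fat array 1 or 3 or knockout spleen array 1 or 2 or 3 or control fat array 1 or control spleen array 1 or 2 (adjusted p 0.0509 to 0.115), Cd40lg without knockout fat array 1 or 2 or 3 or knockout spleen array 1 (adjusted p 0.05 to 0.0962), Tnfsf14 without knockout fat array 1 or 2 or 3 or knockout spleen array 1 or 2 or control spleen array 1 or 2 or 3 (adjusted p 0.0606 to 0.175), Tnfrsf9 without knockout fat array 1 or 2 or knockout spleen array 2 or 3 (adjusted p 0.0553 to 0.0756), Pim1 without knockout fat array 1 or knockout spleen array 1 or 2 (adjusted p 0.056 to 0.0765), and Il2ra without knockout fat array 1 or 3 or knockout spleen array 1 or 2 or 3 (adjusted p 0.0515 to 0.0804).

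Of 16 measured type 1 genes, the group most tied to T-bet, 3 rose (18.8%, against 4.7% of all genes) and 0 fell, with a median of 0.97. Eomes, a T-box relative of Tbx21, read 5.56, 6.85 and 8.34 in knockout fat, against 4.62, 4.67 and 4.65 in knockout spleen, at least 3.29-fold higher in knockout fat (adjusted p = 0.0266), with knockout fat array 1 near background. Its highest level was on knockout fat array 3, where Ncr1, Klrd1 and Klrk1 were also highest, and the part of NK cells was not tested. Stat4, which transmits interleukin-12 signals, read 9.24, 9.10 and 8.98 in knockout fat, against 7.24, 7.69 and 7.85 in knockout spleen, a log2 difference of 1.52 (SE 0.33, adjusted p = 0.0148), and Cd44 was the third. Leaving out single arrays ended calls here as well: Eomes without knockout fat array 2 or 3 or knockout spleen array 1 or 2 or 3 (adjusted p 0.0554 to 0.0877), and Stat4 without knockout spleen array 1 (adjusted p = 0.0669).

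Some early response genes rose in knockout fat, and they were uneven among the spleen arrays. Fosl2, an AP-1 subunit, read 11.70, 11.68 and 11.41 in knockout fat, against 4.84, 4.43 and 7.16 in knockout spleen, a log2 difference of 6.12 (SE 0.68, adjusted p = 0.000263), and its other 2 probes gave 5.53 and 4.54. Jdp2, an AP-1 repressor, read 8.38, 8.30 and 8.21 in knockout fat, against 4.41, 4.47 and 4.50 in knockout spleen, at least 8.59-fold higher (adjusted p = 4.92e-05). Atf3, a stress-induced factor, read 8.41, 8.52 and 8.76 in knockout fat, against 4.52, 4.39 and 6.21 in knockout spleen. Atf3 gave a difference of 3.52 (SE 0.51, adjusted p = 0.00159). Fosb had a difference as large as 4.30 and did not pass (adjusted p = 0.136). Of 12 AP-1 genes 3 rose (median 1.34), of 20 immediate early genes 2 (median 0.72) and of 12 dual specificity phosphatases and related feedback genes 2 (median 1.71), with none lower. Beside these counts, 4.7% of all genes rose, a smaller share than in each list. Most members of the lists were not called, and the counts are small. Ier3, a survival-related early gene, read 11.37, 11.43 and 10.42 in knockout fat, against 6.02, 4.80 and 6.38 in knockout spleen. Ier3 gave a difference of 5.34 (SE 0.54, adjusted p = 0.00018). Gadd45b, a stress sensor, rose by 3.41 (SE 0.87, adjusted p = 0.0322), Dusp5, an ERK phosphatase, by 3.31 (SE 0.78, adjusted p = 0.0216) and Dusp14 by 2.93 (SE 0.41, adjusted p = 0.00123). Gadd45b and Dusp5 lost their calls with single arrays left out: Gadd45b without knockout fat array 1 or 2 or 3 or knockout spleen array 1 or 2 (adjusted p 0.068 to 0.127), and Dusp5 without knockout fat array 1 or 2 or knockout spleen array 1 or 2 (adjusted p 0.0553 to 0.0902).

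The 44 measured genes of these 3 lists averaged 8.76, 9.18 and 9.16 in knockout fat, against 7.39, 7.13 and 8.60 in knockout spleen. Between arrays of the same replicate number the mean difference came to 1.37 for number 1, to 2.06 for number 2 and to 0.55 for number 3. Knockout spleen array 3 was the highest knockout spleen array for 32 of the 44 (72.7%), against 30.1% of all genes. In control spleen, Fosl2 read 4.76, 5.31 and 6.92 and Atf3 4.44, 4.44 and 5.65. Gadd45b read 4.66, 5.39 and 8.25 there and Dusp5 5.71, 5.86 and 8.92, so array 3 was again the highest for each. Why replicate number 3 was high in spleen of both genotypes was not tested. Without knockout spleen array 3, 475 genes were called, 299 higher and 176 lower.

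Of 16 measured NF-kappa-B genes 3 rose and none fell, with a median of 1.41. Bcl3, a nuclear co-factor, read 7.60, 6.96 and 7.47 in knockout fat, against 4.88, 4.68 and 4.93 in knockout spleen, at least 4.43-fold higher (adjusted p = 0.00209). Nfkb2, the subunit of the non-canonical pathway, rose by 2.42 (SE 0.43, adjusted p = 0.00504) and the inhibitor gene Nfkbie by 2.63 (SE 0.60, adjusted p = 0.0198). The last call was lost for Nfkbie without knockout fat array 1 or 2 or knockout spleen array 1 or 3 (adjusted p 0.0502 to 0.0747). The largest rises outside any list were Slco2b1, an organic anion transporter, with 10.15, 9.86 and 10.79 in knockout fat, against 4.40, 5.40 and 4.77 in knockout spleen, Kctd12, an auxiliary subunit of GABA-B receptors, with 10.59, 10.05 and 10.10 in knockout fat, against 4.97, 4.49 and 5.12 in knockout spleen, Lmna, the gene of lamins A and C, with 10.44, 10.02 and 10.75 in knockout fat, against 4.75, 4.50 and 5.92 in knockout spleen, Crem, a cyclic AMP response factor, with 11.86, 11.89 and 11.49 in knockout fat, against 7.50, 5.16 and 6.86 in knockout spleen, and Mt1, a metallothionein, with 9.0, 9.65 and 10.33 in knockout fat, against 4.42, 4.35 and 5.75 in knockout spleen. Their differences were 5.41, 5.38, 5.34, 5.24 and 4.82. The other 4 Lmna probes gave 4.32 to 5.25.

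Genes of the resting lymphoid state were the main group lower in knockout fat. Of 16 measured 7 fell and 1 rose, with a median of -2.26, against 3.5% of all genes lower. Lef1, a partner of beta-catenin kept by naive T cells, read 5.88, 6.35 and 5.02 in knockout fat, against 9.25, 9.76 and 9.70 in knockout spleen. Lef1 gave a difference of -3.82 (SE 0.41, adjusted p = 0.000237). Dtx1, a Notch-linked ubiquitin ligase, read 4.74, 4.65 and 4.70 in knockout fat, against 9.73, 7.96 and 8.60 in knockout spleen, undetected on all fat arrays and at least 12.5-fold lower in knockout fat (adjusted p = 0.000247). Lta, lymphotoxin alpha, read 4.54, 7.01 and 4.84 in knockout fat, against 9.86, 9.56 and 9.43 in knockout spleen, with knockout fat array 2 above the other fat arrays, a log2 difference of -4.15 (SE 0.54, adjusted p = 0.000838). Bcl2, a survival gene, fell by 2.50 (adjusted p = 0.0137), Actn1, an actin crosslinker, by 2.80 (adjusted p = 0.0168) and Dapl1 by 2.20 (adjusted p = 0.0155). Il7r, the interleukin-7 receptor, was the 1 that rose, with 10.71, 10.79 and 10.60 in knockout fat, against 8.63, 9.49 and 9.40 in knockout spleen. Single arrays decided some of these: Bcl2 without knockout spleen array 2 (adjusted p = 0.0547), Actn1 without knockout fat array 2 or knockout spleen array 1 or 2 (adjusted p 0.0524 to 0.0711), Dapl1 without knockout spleen array 2 or 3 (adjusted p 0.0617 to 0.0633), and Il7r without knockout fat array 1 or 2 or knockout spleen array 1 (adjusted p 0.0526 to 0.0829).

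Survival genes split. In the BCL2 family 3 of 12 rose and 1 fell, with a median of -0.09. Bcl2l1, which encodes BCL-xL, read 9.61, 9.15 and 10.10 in knockout fat, against 5.84, 6.42 and 6.56 in knockout spleen, a log2 difference of 3.35 (SE 0.53, adjusted p = 0.00277), the direction opposite to that of Bcl2. Bcl2a1d and Bcl2a1b, near-identical copies whose signals may be shared, rose by 1.34 and 1.35. Both calls were lost with single arrays left out. Bcl2a1d lost its call without knockout fat array 1 or knockout spleen array 1 or 3 (adjusted p 0.0518 to 0.0618). Bcl2a1b lost its call without knockout fat array 1 or knockout spleen array 1 (adjusted p 0.0572 to 0.0701). In the Notch pathway 3 of 11 rose and 1 fell, with a median of 0.50. Rbpj, its DNA-binding factor, read 9.15, 8.83 and 8.48 in knockout fat, against 5.95, 6.61 and 5.92 in knockout spleen. Rbpj gave a difference of 2.66 (SE 0.33, adjusted p = 0.000507). Jag1, a Notch ligand, read 7.24, 8.26 and 7.20 in knockout fat, against 4.35, 4.35 and 4.43 in knockout spleen, at least 5.17-fold higher (adjusted p = 0.000237), while Dtx1 fell.

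Interferon response genes were lower where they differed. Of 20 measured 3 fell and none rose, with a median of -0.62. Usp18, a protease that curbs interferon signalling, read 4.72, 4.76 and 4.85 in knockout fat, against 7.77, 8.05 and 7.44 in knockout spleen, at least 6.21-fold lower in knockout fat (adjusted p = 0.00329). Ifit3, an antiviral gene, read 8.0, 6.49 and 6.58 in knockout fat, against 9.0, 9.12 and 9.16 in knockout spleen, a log2 difference of -2.07 (SE 0.43, adjusted p = 0.0115), and Ifit2, its relative, gave -2.58 (SE 0.61, adjusted p = 0.0235). A call was lost for Ifit2 without knockout fat array 1 or 3 or knockout spleen array 2 or 3 (adjusted p 0.0529 to 0.0979). Among the largest falls outside the lists were Ifit1bl1, of the same family, with 5.84, 5.38 and 4.59 in knockout fat, against 9.62, 10.25 and 8.90 in knockout spleen, and Ifi213, of the interferon-inducible p200 family, with 6.83, 4.92 and 7.19 in knockout fat, against 9.88, 10.58 and 9.51 in knockout spleen. Gm4956, whose signal may be shared with Ifi213, read 7.39, 7.62 and 9.19 in knockout fat, against 11.43, 11.88 and 11.82 in knockout spleen.

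The deepest fall was that of BC147527, with 4.48, 4.50 and 4.47 in knockout fat, against 8.97, 9.56 and 9.14 in knockout spleen, at least 17.2-fold lower in knockout fat (adjusted p = 0.000784). Slamf6, a receptor of naive and stem-like T cells, read 4.50, 4.54 and 4.48 in knockout fat, against 7.89, 8.57 and 8.58 in knockout spleen. Slamf6 gave a difference of -3.84 (SE 0.44, adjusted p = 0.000298). Its other probes gave 0.35 and -0.27, so the fall rests on 1 probe. Abi3, an adaptor of the actin cytoskeleton, read 4.69, 4.63 and 4.48 in knockout fat, against 9.37, 7.07 and 8.95 in knockout spleen, at least 10.1-fold lower (adjusted p = 0.00244), and Evl, of the Ena/VASP actin regulators, read 4.62, 6.72 and 7.90 in knockout fat, against 10.33, 9.65 and 9.86 in knockout spleen. Several mitochondrial genes stood in the same range: Mcat, an acyltransferase, read 4.67, 5.95 and 4.65 in knockout fat, against 8.58, 9.17 and 8.09 in knockout spleen, Mterf1a, a transcription factor, 4.71, 5.54 and 4.43 in knockout fat, against 8.28, 9.05 and 8.0 in knockout spleen, and Tamm41, of cardiolipin synthesis, 4.69, 7.23 and 5.11 in knockout fat, against 10.10, 9.12 and 8.61 in knockout spleen. Their differences were -3.52, -3.55 and -3.60. The cell cycle factor E2f2 had a log2 difference of -3.61 (SE 0.97, adjusted p = 0.0407) and the deubiquitinase gene Stambp a log2 difference of -3.51 (SE 0.83, adjusted p = 0.0228). In Tamm41 knockout fat array 2 stood above the other fat arrays. Calls lost with single arrays left out were these: Mterf1a without knockout fat array 1 or 3 or knockout spleen array 1 or 2 (adjusted p 0.0678 to 0.0908), Tamm41 without knockout fat array 1 or 3 or knockout spleen array 1 or 2 or 3 or control fat array 1 or control spleen array 1 or 2 or 3 (adjusted p 0.0608 to 0.167), E2f2 without knockout fat array 1 or 2 or knockout spleen array 1 or 2 or 3 or control spleen array 1 or 2 or 3 (adjusted p 0.0532 to 0.132), and Stambp without knockout fat array 1 or 2 or knockout spleen array 1 or 2 (adjusted p 0.0621 to 0.0867).

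Of 77 genes in lists of ribosomal proteins, cell cycle, T cell receptor signalling, heat shock and RGS proteins 8 were called (10.4%, against 8.21% of all genes). Of 18 ribosomal protein genes 2 fell, Rpl22 with 5.67, 5.51 and 6.0 in knockout fat, against 8.03, 7.55 and 7.53 in knockout spleen and Rpl4 with a difference of -1.90 (SE 0.48, adjusted p = 0.0315), and the median was -0.32. Among the 13 whose level passed 11 in either tissue the differences ran from -0.91 to 0.05. In the cell cycle list 1 of 19 rose, Cdkn1a, the inhibitor p21, with 8.46, 8.65 and 8.99 in knockout fat, against 4.98, 5.50 and 4.83 in knockout spleen, and 1 fell, Tyms, thymidylate synthase, by 1.58 (adjusted p = 0.0439), with a median of -0.02. The other Tyms probe gave -0.03, and the mean of the Tyms probes gave -0.805 and was not called (limma adjusted p = 0.236). None of 21 genes of T cell receptor signalling was called (median -0.34); Prkcq, a kinase of the synapse, gave -1.78 (SE 0.54, adjusted p = 0.0656) and the phosphatase gene Ptpn22 1.13 (SE 0.40, adjusted p = 0.112). Of 12 heat shock genes Dnajb6 rose by 1.26 (SE 0.34, adjusted p = 0.0427) and Hspe1 fell by 1.26 (adjusted p = 0.0184), with a median of 0.32, and of 7 RGS genes Rgs2 rose by 3.39 (SE 0.54, adjusted p = 0.00285) and Rgs3 fell by 2.06 (adjusted p = 0.0355), with a median of -0.74. The other Rgs3 probes gave -1.64 and 0.11. Some of these calls did not hold: Rpl4 without knockout fat array 1 or 2 or 3 or knockout spleen array 2 or 3 (adjusted p 0.0611 to 0.117), Tyms without knockout fat array 2 or 3 or knockout spleen array 1 or 2 or 3 or control fat array 1 or control spleen array 1 or 2 (adjusted p 0.0559 to 0.141), Dnajb6 without knockout fat array 1 or 2 or 3 or knockout spleen array 1 or 2 or 3 or control fat array 1 or control spleen array 1 or 2 (adjusted p 0.0502 to 0.116), Hspe1 without knockout fat array 2 or 3 or knockout spleen array 2 or 3 (adjusted p 0.0522 to 0.0699), and Rgs3 without knockout fat array 1 or 2 or knockout spleen array 1 or 3 (adjusted p 0.103 to 0.142).

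**Figure D4:**
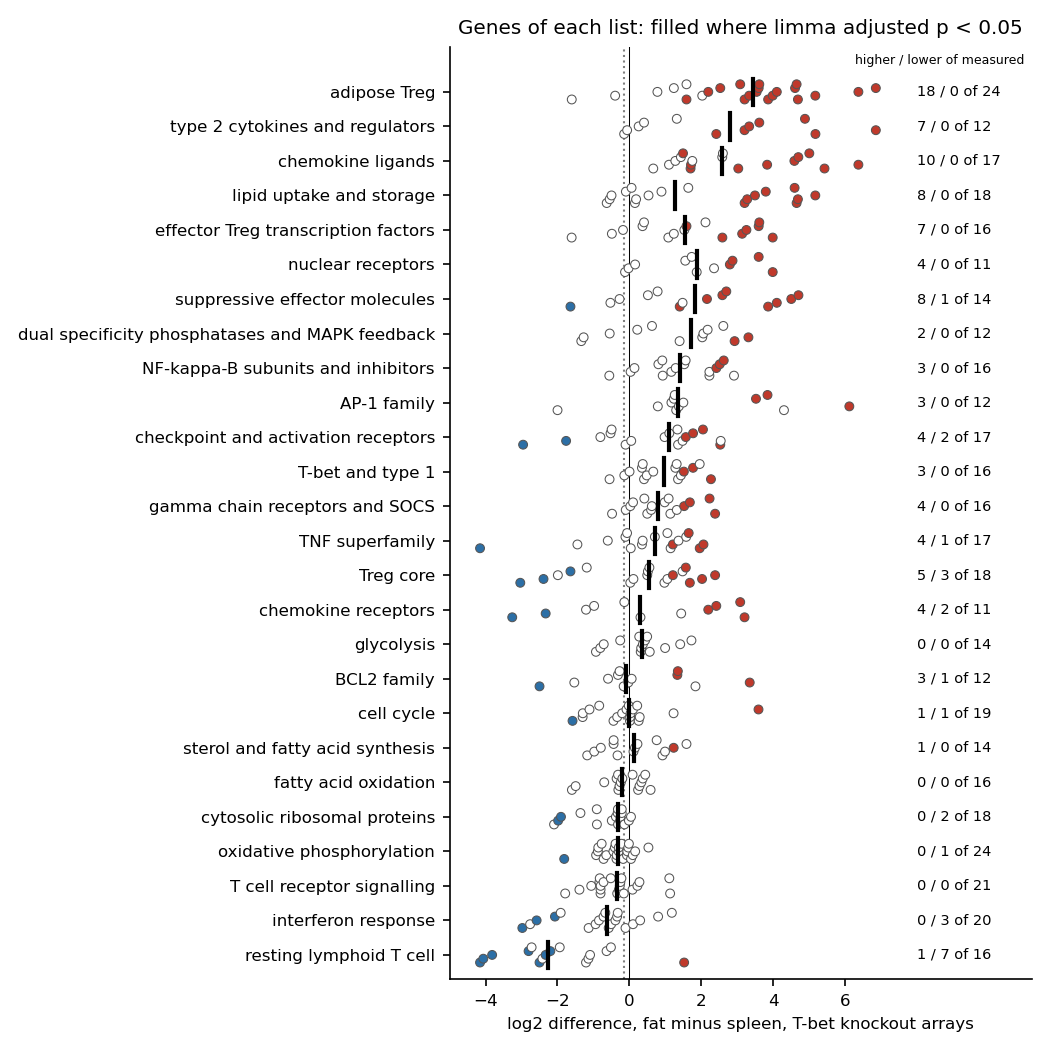
Each row is a gene list and each point a measured gene, placed by its log2 difference, knockout fat minus knockout spleen; red points rose, blue points fell, open points were not called, and the numbers at the right count rises and falls among measured genes. Black bars are list medians and the dotted line is the median of all genes at -0.14; the adipose Treg list has its median at 3.44 and the resting lymphoid list at -2.26.

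The same tissue comparison was made in the control mice, from the group means of the other 6 arrays. It called 649 genes (8.09%), 357 higher in fat and 292 lower. Its test came from the same limma fit as the knockout comparison, so both used the same variance estimate for each gene. The genes had also been filtered by detection on the knockout arrays alone. The overlaps below are therefore not those of independent tests. Of the 377 genes higher in knockout fat 268 were also called higher in control fat, 71.1% of the knockout calls and 75.1% of the control calls. Of the 281 lower in knockout fat 124 were also called lower in control fat, 44.1% of the knockout calls and 42.5% of the control calls. No gene was called in opposite directions, and 640 of the 658 knockout calls had the same sign in the controls. Over all 8019 genes the tissue differences of knockouts and controls correlated at 0.753, a description over genes, which are not independent.

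The difference between the tissue differences of knockouts and controls was tested for every gene. None of 8019 was called by limma (0%), 315 had an unadjusted p below 0.05, and the smallest adjusted p was 0.301, with a median SE of 0.70. No gene was thus shown to differ in its tissue difference between genotypes, which does not show that the genotypes act alike. The programme genes stood side by side as follows. Il5 had a difference of 6.86 in knockouts and 7.49 in controls, Pparg 3.99 and 2.87, Gata3 3.61 and 2.93, Lpl 5.17 and 4.39, and Lef1 -3.82 and -3.28. Ccr6, Eomes and Cd274, singled out after their values were seen, were called in knockouts and had differences near 0 in controls. Ccr6 had -3.26 in knockouts and 0.02 in controls, where it read 8.30, 9.75 and 6.91 in control fat, against 8.32, 9.24 and 7.35 in control spleen, and the difference between genotypes was -3.27 (SE 1.22, adjusted p = 1). Eomes had 2.27 in knockouts and 0.28 in controls, where it read 5.13, 5.27 and 4.57 in control fat, against 4.39, 5.02 and 4.71 in control spleen, and the difference between genotypes was 1.99 (SE 0.79, adjusted p = 1). Cd274 had 2.05 in knockouts and 0.17 in controls, a difference of 1.88 (SE 0.80, adjusted p = 1). None of these passed, and each lost its knockout call with single arrays left out, as given above.

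**Figure D5:**
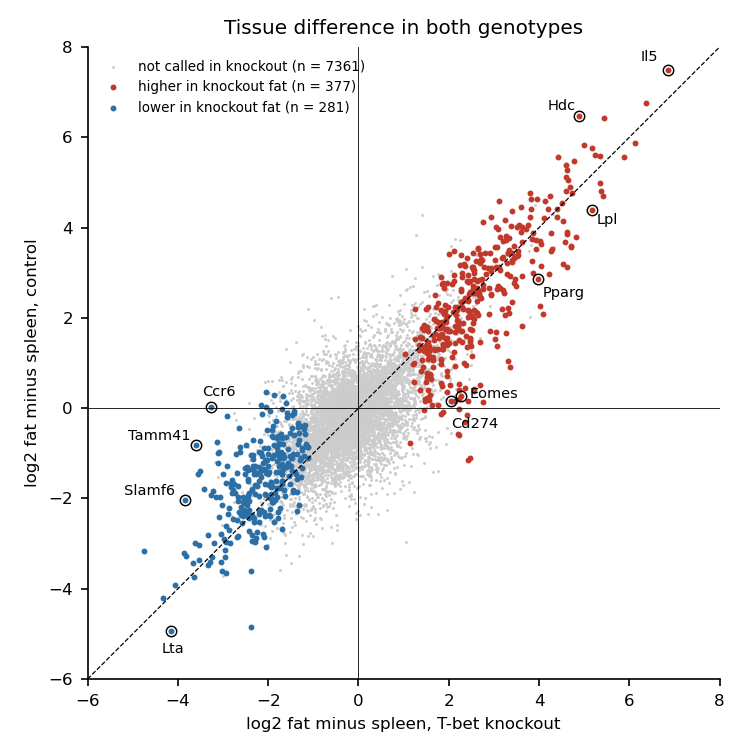
Each point is 1 of 8019 genes, with the log2 fat minus spleen difference in T-bet knockout arrays on the x axis and that in control arrays on the y axis; red and blue points were called higher or lower in knockout fat, and the dashed line marks equal differences. Most coloured points lie at the lower left and upper right, while Ccr6, Eomes and Cd274 lie near 0 on the control axis.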

How the data were processed

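RNA of Tregs was amplified and hybridised to 12 Illumina bead arrays in 4 groups of 3. Per the labels' protocols, RNA was prepared with Qiagen Allprep, amplified with NuGEN Ovation Pico and labelled with biotin. The input amount in the labels was not used here. Per the file headers, the authors deposited a mean bead intensity for each of 45281 probes and array, not normalized, with a detection p-value. Another deposited table holds intensity that the authors normalized by a method not given in the sources used here, and served as an alternative. GenomeStudio is named per the submitters' processing notes, with no version or genome build. The deposited values show 27.0 to 40.9% of probes detected per array.

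Background was removed by the nec function (limma 3.58.1, R 4.3.3; offset 16, negative controls inferred from the detection p-values), followed by quantile normalization over the 12 arrays and log2. Probes with detection p below 0.05 in at least 3 of the 6 knockout arrays were kept (15251). Genes came from the platform annotation, by which 34885 probes had 1 symbol, 18 several and 10378 none; 34807 matched RefSeq by Entrez number. The kept probe with the highest mean stood for its gene, which left 8019 genes. Levels of different probes are not comparable.

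The 12 arrays entered 1 limma fit with 4 group means, leaving 8 residual and 4.03 prior degrees of freedom. The call needed an adjusted p (Benjamini-Hochberg) under 0.05. SE is the moderated standard error, with a median of 0.49. A gene undetected by every probe in its dimmer tissue has its fold given as a bound, from the lowest signal detected on each of those arrays (5.01 to 5.51). The fit was tested on simulated data. No 2 arrays held identical values. The number in the titles names the replicate, and same-numbered arrays share a number in their array names, taken here as the slide. Deviations of same-numbered arrays of knockout fat and knockout spleen correlated at 0.035, 0.068 and 0.098, and the numbers were not taken as pairs in the main fit. That does not cover likeness between genotypes within a tissue. Knockout spleen array 3 correlated at 0.944 with control spleen array 3, against 0.889 and 0.903 with knockout spleen arrays 1 and 2. For numbers 1 and 2 the knockout and control spleen arrays correlated at 0.877 and 0.910. On principal component 2, an axis of spread among the 12 arrays, array 3 was the lowest of each group. It stood at -33.7 in knockout fat, -9.9 in knockout spleen, -45.5 in control fat and -14.4 in control spleen. The main fit took the arrays as independent, and the slide as a block was an alternative. The number of arrays limits the precision.

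The 44 gene lists (708 genes, 472 measured) and the genes compared were chosen with earlier results of these data known. Genes were named by a rule: of called genes with 1 sign on all slides, the 15 largest rises and 15 largest falls; in each list the called members of largest change, at most 4, or, failing any, the 2 of smallest p; where measured, Tbx21, Foxp3, Il1rl1, Pparg, Gata3, Cxcr3, Klrg1 and Areg; and up to 3 genes called between the tissue differences, of which there were none. Il1rl1 and Areg were not analysed here. Il13, Il4, Ccl2, Ccl9, Ccl1, Ccl6, Ccr2, Ccr7, Hilpda, Plin2, Dgat2, Id2, Prdm1, Irf4, Gzmb, Ctla4, Fosb, Dapl1, Btla, Nt5e and the cell type markers below the detection filter were added after their values were seen. Promoters are from RefSeq, GRCm38.p6. Alternatives changed the normalization, background correction, filter, probe choice, samples in the fit, slide block, variance model and each array in turn.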

Additional observations from a re-analysis of the deposited data

Results flagged for a closer look

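Of 2782 kept probes with no gene symbol in the annotation used, which entered no count above, 122 were called between knockout fat and knockout spleen over all kept probes, 66 higher in knockout fat and 56 lower. Their share of calls was below the 8.21% of genes called above, though the adjustment here ran over probes and not over genes. They are set apart because a signal stood in data outside the comparison of named genes. No group here holds enough arrays for a check of single outlying arrays.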

How the results depend on the processing

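The limit is 3 arrays a group and dim probes. Under 26 alternatives the tissue difference called 331 to 781 genes, and 0 of the 658 genes were called in the opposite direction under any of them. Leaving out each of the 12 arrays in turn gave 331 to 743 genes, 216 to 409 higher in knockout fat and 115 to 337 lower. The lowest counts came without knockout spleen array 1 (331, 216 higher and 115 lower) and array 2 (359, 239 higher and 120 lower), and the lower calls numbered 172 without knockout fat array 1 and 176 without knockout spleen array 3. With no filter on dim probes, which tested 19057 genes, 434 were called, 274 higher and 160 lower. The share of calls higher in knockout fat was 57.3% as reported. Cyclic loess made it 66.9%, from 409 genes higher and 202 lower, and moved the median of all genes to -0.03. Median scaling made it 76.1%, from 426 higher and 134 lower, with that median at 0.10 (-0.14 as reported). The slide as a replicate block gave 698 genes, 393 higher and 305 lower. It ended the calls of E2f2 (adjusted p = 0.0534), Sdha (0.0531), Tamm41 (0.0723), Tyms (0.0593) and Nt5e (0.0540), added Acaa2 (0.0359), Prkcq (0.0338) and Sparc (0.0499), and changed no other call among the genes named. The difference between knockout and control tissue differences called 0 genes by limma under the 24 alternatives that could give it, with 238 to 714 genes at an unadjusted p below 0.05. Of 120 called genes that the text names, 71 kept the call under all alternatives that measured them and 49 lost it under at least 1; the cause was not tested. Without background correction the fold of 96 of these 120 was smaller by over 1.5 times, with a median of 2.33 times and at most 3.97 times, and in the authors' normalized table that was so for 96 as well, with a median of 2.31. Signs turned in 4 genes that were not called. Pecam1, an endothelial marker with -0.02, gave 0.11 with cyclic loess and 0.31 with median scaling, and -0.25 to 0.37 with single arrays left out. Foxp3 gave -0.15 by the mean of its probes. Cxcr3 gave -0.67 to 0.70 and Il4 -0.20 to 0.16 with single arrays left out.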
